A study of Mus musculus with 9 samples.

Results

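Outside Gaa, the gene that was disrupted, 8 genes made up most of the largest losses of transcript in the white gastrocnemius of Gaa knock-out mice. They were Pttg1, Tmem232, Pla2g7, 2610507I01Rik, 1700001O22Rik, Fgfbp1, Odf3l2 and Dkk3. They were chosen by name from the 10 largest decreases in these same libraries, which also held Gaa and Kcnf1, a potassium channel subunit. All 8 were found, on 11 of the 23665 transcript lines of the table, among 18062 genes in all. The difference between knock-out and wild type chose them, so that difference is described below without a test.

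The knock-out (KO) group was 5 libraries from mice at 5 months of age in which exon 6 of Gaa, the gene of acid alpha-glucosidase, was disrupted by targeting, with lox sites in introns 5 and 6. The wild-type (WT) group was 4 libraries, 2 from mice at 5 months and 2 at 6 months. Both groups were labelled as mixed background, given in the protocol as BL6/129 in a colony kept by brother-sister mating. Acid alpha-glucosidase breaks down glycogen in lysosomes, and people who lack it have Pompe disease, in which glycogen builds up in muscle. The study compared RNA from the white, mostly fast-twitch part of this calf muscle between the genotypes. The names of the WT value columns carry no age, so both ages form 1 arm and age cannot be told apart within it. The labels do not tie libraries to named mice, so the p-values below speak of the spread from library to library, which may be technical.

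Values are RPKM, reads scaled to transcript length and library size, summed per gene over its transcripts. Depth, estimated from how low values step by whole reads, was 17.6 to 37.5 reads per RPKM and kilobase of transcript in KO libraries and 37.1 to 64.5 in WT libraries. RPKM totals were 349239 to 374056 in KO and 315337 to 327517 in WT. Gaa itself averaged 3.44 ± 0.204 RPKM in KO (SD, n = 5) and 49.4 ± 4.48 RPKM in WT (SD, n = 4), so every library had the level its label calls for. Fast-fibre markers summed to 77731 to 89810 RPKM in KO and 76266 to 82960 RPKM in WT, so the labelled muscle's defining genes were abundant in both groups. The muscle was sampled in bulk, so fewer cells of a type and less RNA per cell cannot be told apart for any gene below.

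The 8 genes do not belong to 1 known pathway. Pttg1 encodes securin, the inhibitor that holds separase inactive until the anaphase-promoting complex marks securin for destruction, which frees separase to cut the cohesin rings that join sister chromatids. Pla2g7 encodes the secreted platelet-activating factor acetylhydrolase of plasma, which inactivates platelet-activating factor and oxidised phospholipids and is made largely by macrophages. Dkk3 is a secreted member of the Dickkopf family, whose other members block the Wnt co-receptors Lrp5 and Lrp6, and Fgfbp1 is a secreted carrier that releases fibroblast growth factors from the matrix. Odf3l2 is named for its likeness to an outer dense fibre protein of sperm tails, and Tmem232 encodes a predicted membrane protein. 1700001O22Rik and 2610507I01Rik carry only RIKEN identifiers, and RefSeq lists 2610507I01Rik as a long non-coding RNA. Pttg1 and 2610507I01Rik lie on chromosome 11, which also carries Gaa. Tmem232 and Pla2g7 lie on chromosome 17, and the others lie on chromosomes 2 (1700001O22Rik), 5 (Fgfbp1), 10 (Odf3l2) and 7 (Dkk3).

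Promoter sequence was at hand for 6 of the 8 genes, as 7 windows of 300 bases from RefSeq (GRCm38.p6) that run 5′ to 3′ along the gene's strand. Shown are the windows of the 3 genes with the largest losses on the scale used below and that of Fgfbp1, the only window of the 7 with a TATA box. Capitals mark matches on either strand to a CCAAT box, to a TATA box (spelled TATAAA) or to a GC box (spelled GGGCGG). The regions are chr11:43425932-43426231 (minus strand) for Pttg1, chr17:65510008-65510307 (minus strand) for Tmem232, chr11:59202382-59202681 (minus strand) for 2610507I01Rik and chr5:43981750-43982049 (minus strand) for Fgfbp1.
Pttg1: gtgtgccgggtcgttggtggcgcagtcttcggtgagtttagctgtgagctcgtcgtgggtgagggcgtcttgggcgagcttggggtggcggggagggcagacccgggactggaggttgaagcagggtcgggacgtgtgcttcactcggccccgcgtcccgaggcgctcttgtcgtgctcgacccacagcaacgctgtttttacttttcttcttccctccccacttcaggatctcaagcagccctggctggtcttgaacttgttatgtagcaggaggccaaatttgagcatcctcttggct
Tmem232: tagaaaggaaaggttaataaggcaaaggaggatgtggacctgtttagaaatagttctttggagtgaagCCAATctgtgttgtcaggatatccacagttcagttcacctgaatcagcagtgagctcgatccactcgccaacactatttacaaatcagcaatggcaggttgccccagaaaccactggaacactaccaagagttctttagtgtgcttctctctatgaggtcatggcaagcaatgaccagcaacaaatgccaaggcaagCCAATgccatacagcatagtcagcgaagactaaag
2610507I01Rik: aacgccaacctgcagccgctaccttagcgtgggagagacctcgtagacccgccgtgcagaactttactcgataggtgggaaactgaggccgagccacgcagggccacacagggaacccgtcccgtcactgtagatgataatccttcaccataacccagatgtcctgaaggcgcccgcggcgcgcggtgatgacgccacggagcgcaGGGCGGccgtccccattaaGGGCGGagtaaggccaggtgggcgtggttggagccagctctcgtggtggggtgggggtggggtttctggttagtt
Fgfbp1: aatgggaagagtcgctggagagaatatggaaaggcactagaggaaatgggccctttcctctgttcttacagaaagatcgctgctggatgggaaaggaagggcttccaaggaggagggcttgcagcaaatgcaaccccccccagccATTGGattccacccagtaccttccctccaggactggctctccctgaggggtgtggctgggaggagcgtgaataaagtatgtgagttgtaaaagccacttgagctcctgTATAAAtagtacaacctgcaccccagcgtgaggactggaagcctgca

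The 4 windows had little in common in these letters. CG pairs numbered 20 in the window of Pttg1 and 25 in that of 2610507I01Rik, against 3 for Tmem232 and 4 for Fgfbp1, and a median of 7 over 32851 mouse promoter windows of the same length. CCAAT was in 2 of the 7 windows (Tmem232 and Fgfbp1) and in 37.4% of all windows. TATAAA was in 1 of the 7 and in 13.6% of all windows, and GGGCGG in 3 of the 7 and in 35.7% of all windows. TTTGAA, the core of the cell cycle homology region, was in none of the 7 and in 17.9% of all windows, and CACGTG was in none of the 7 and in 7.15% of all windows. The general E-box CANNTG, which includes CACGTG and is not capitalised above, was in 6 of the 7 and in 72.3% of all windows. A match is a description of the letters and not of a bound site.

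Securin transcript was scarce in KO muscle and, with Pla2g7, the most abundant of the 8 in WT muscle. Pttg1 had 1.55, 1.5, 1.45, 1.79 and 1.33 RPKM in KO and 39.3, 36.2, 39.5 and 40.5 RPKM in WT. All KO values lay far below all WT values, with little spread inside either group. The KO mean was 1.52 ± 0.17 RPKM (SD, n = 5) and the WT mean 38.9 ± 1.85 RPKM (SD, n = 4), a difference of -4.59 on the log2(RPKM + 0.1) scale used throughout, which understates changes of low genes. In KO the mean level of Pttg1 lay above 20.2% of the 11032 genes tested, and in WT above 91.7% of them. The KO values rested on an estimated 19 to 53 reads a library and the WT values on 1082 to 2015. The main Pttg1 transcript carried 97.3% of the gene's RPKM in KO and 94.6% in WT. The second Pttg1 transcript averaged 0.0414 RPKM in KO and 2.12 RPKM in WT, so both transcripts were low in KO.

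Tmem232 had the largest decrease of all genes tested on the log2(RPKM + 0.1) scale; with 1 added in place of 0.1, its difference was -3.01 and that of Pttg1 was larger, at -3.98. Its RPKM was 0.143, 0.129, 0.239, 0.0922 and 0.0953 in KO and 8.44, 9.92, 7.44 and 7.12 in WT. The groups did not overlap, and the KO mean of 0.14 ± 0.0598 RPKM (SD, n = 5) was 1.7% of the WT mean of 8.23 ± 1.26 RPKM (SD, n = 4). An estimated 8 to 12 reads a library were behind the KO values and 812 to 1242 behind the WT values, a depth at which counting error in the KO values is large. The log2 difference was -5.14.

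2610507I01Rik, the non-coding RNA, had 0.0955, 0.162, 0.175, 0.155 and 0.0955 RPKM in KO and 4.24, 3.96, 4.45 and 4.16 RPKM in WT. The WT libraries were close together and every KO library was far below them. The means were 0.137 ± 0.0382 RPKM in KO (SD, n = 5) and 4.20 ± 0.203 RPKM in WT (SD, n = 4), a log2 difference of -4.20. The reference gave no length for its transcript, so no read numbers were estimated.

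**Figure D1:**
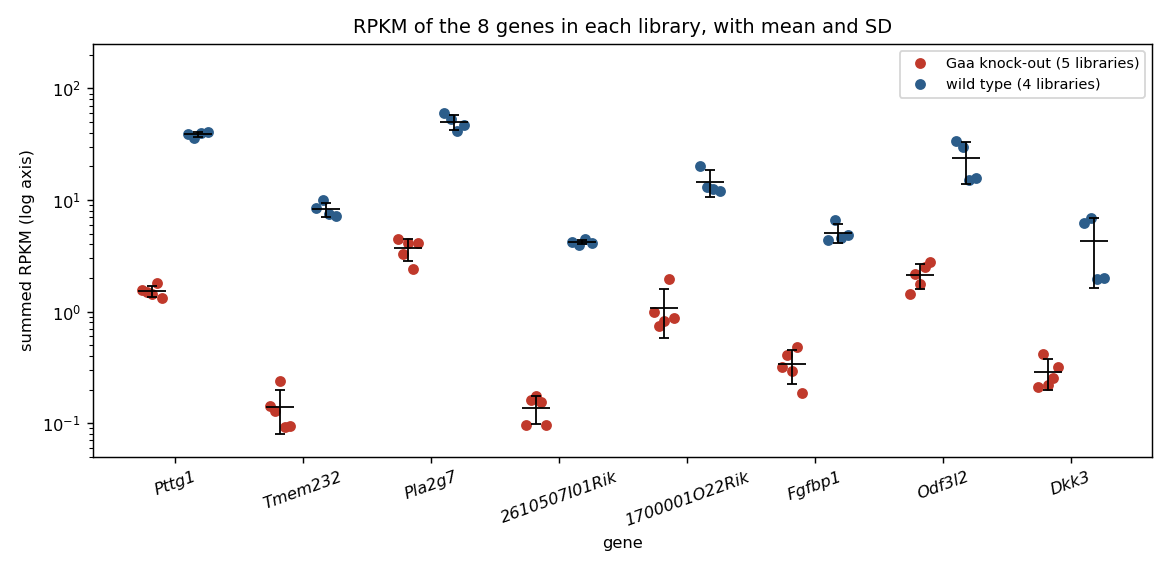
Summed RPKM (log axis) of the 8 genes in each of the 5 KO libraries (red, left of each pair) and 4 WT libraries (blue, right), with horizontal marks at the mean and bars of 1 SD. No KO point reaches a WT point, and KO means are 1.7% (Tmem232) to 9.08% (Odf3l2) of WT means.

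Pla2g7 was the most abundant of the 8 in both groups. It had 4.44, 3.29, 4.15, 2.41 and 4.10 RPKM in KO and 60.1, 52.8, 41.6 and 46.8 RPKM in WT. The highest KO library was still far below the lowest WT library. The KO mean of 3.68 ± 0.83 RPKM (SD, n = 5) was 7.31% of the WT mean of 50.3 ± 7.98 RPKM (SD, n = 4), a log2 difference of -3.76. In KO the mean level of Pla2g7 lay above 42.3% of genes tested, and in WT above 93.8%. Of the 8 genes it kept the most reads in KO, an estimated 153 to 301 a library.

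Fgfbp1 and Dkk3, the secreted modulators of growth factor signals, were of middling level in WT, above 54.5% and 49.6% of genes tested. Fgfbp1 had 0.319, 0.407, 0.292, 0.480 and 0.186 RPKM in KO and 4.37, 6.6, 4.6 and 4.87 RPKM in WT. Its KO mean was 0.337 ± 0.112 RPKM (SD, n = 5), against 5.11 ± 1.01 RPKM in WT (SD, n = 4), and its KO values rested on an estimated 6 to 21 reads. Dkk3 had 0.211, 0.421, 0.218, 0.253 and 0.321 RPKM in KO and 6.22, 6.94, 1.97 and 2.01 RPKM in WT. The WT libraries of Dkk3 fell into a high pair, wt1 and wt2, and a low pair, wt3 and wt4, and the highest KO value was 21.4% of the lowest WT value. The means of Dkk3 were 0.285 ± 0.0879 RPKM in KO (SD, n = 5) and 4.29 ± 2.67 RPKM in WT (SD, n = 4). The log2 difference was -3.60 for Fgfbp1 and -3.31 for Dkk3.

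Odf3l2 showed the same pair of high WT libraries as Dkk3. It had 1.43, 2.16, 1.76, 2.53 and 2.81 RPKM in KO and 33.6, 29.8, 15.2 and 15.6 RPKM in WT. Its means were 2.14 ± 0.559 RPKM in KO (SD, n = 5) and 23.5 ± 9.54 RPKM in WT (SD, n = 4), a log2 difference of -3.35.

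1700001O22Rik had 1.00, 0.747, 0.831, 1.97 and 0.869 RPKM in KO and 20.3, 13.2, 12.5 and 12 RPKM in WT. A single library stood above the rest in each group, ko4 among the KO and wt1 among the WT. Its means were 1.08 ± 0.506 RPKM in KO (SD, n = 5) and 14.5 ± 3.86 RPKM in WT (SD, n = 4), a log2 difference of -3.68. Its most abundant transcript averaged 0.767 RPKM in KO and 12 RPKM in WT, and the next averaged 0.234 RPKM in KO and 2.30 RPKM in WT. The least abundant transcript of 1700001O22Rik was low in both, at 0.0839 RPKM in KO and 0.179 RPKM in WT, and there the groups overlapped. The other genes apart from Pttg1 had 1 transcript each.

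All 8 genes passed the filter on low values (0.5 RPKM or more on average over all 9 libraries), through their WT values where KO was low. All 5 KO values lay below all 4 WT values for each of the 8, which was also so for 1263 of 11032 genes (11.4%), and since this contrast chose the genes nothing is read from it. The folds that follow are of RPKM + 0.1 and are smaller than ratios of the RPKM means. Just inside the 10 largest decreases, Dkk3 was 9.89-fold lower in KO (0.285 RPKM in KO and 4.29 in WT). Just outside, 2610018G03Rik was 8.68-fold lower (0.126 RPKM in KO and 1.87 in WT) and Tiam1, an activator of the small GTPase Rac, 7.88-fold lower (0.194 RPKM in KO and 2.18 in WT). The place of a gene at this edge depends on the amount added.

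The 8 genes varied to different degrees within a genotype. Among KO libraries the highest over the lowest value ran from 1.35 for Pttg1 to 2.64 for 1700001O22Rik, against a median of 1.25 over 11022 genes, and the low KO values carry more counting error. Among WT libraries the ratio was 1.12 for both Pttg1 and 2610507I01Rik, against a median of 1.21 over 11021 genes. It was 1.39 for Tmem232, 1.45 for Pla2g7, 1.51 for Fgfbp1 and 1.68 for 1700001O22Rik. Odf3l2 at 2.21 and Dkk3 at 3.52 lay above the 90th percentile of all genes, which was 1.71. Libraries wt1 and wt2, the high pair for both, were also the least deep of the WT libraries, at 37.1 and 37.7 reads per RPKM and kilobase against 64.5 in wt3 and 47.5 in wt4. The part of depth in this was not tested, and since the WT columns carry no age, neither could it be set against the ages of 5 and 6 months in the WT group.

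**Figure D2:**
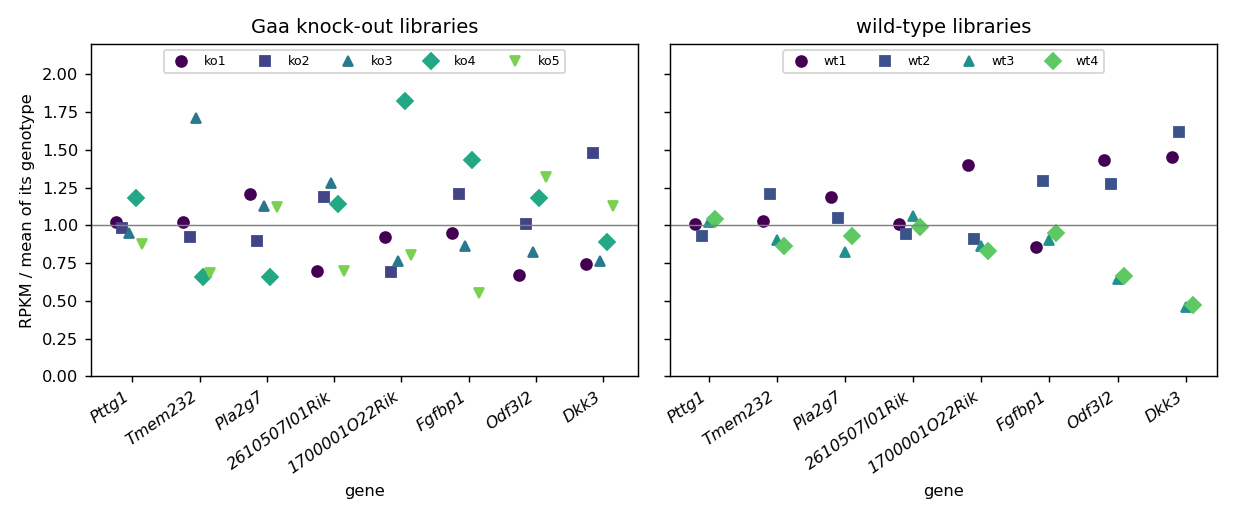
Each library's RPKM divided by the mean of its own genotype, for KO libraries (left) and WT libraries (right), with 1 marker per library. Among WT libraries Pttg1 and 2610507I01Rik stay close to 1, whereas for Odf3l2 and Dkk3 wt1 and wt2 lie above 1 (1.43 and 1.27, and 1.45 and 1.62) and wt3 and wt4 below (0.644 and 0.663, and 0.46 and 0.469).

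The genes whose pattern over the 9 libraries was most like each of the 8 were sought by the mean absolute difference of log2 values, after each gene was centred on its own mean. The genotype difference dominates this measure, so genes of like loss come out as alike. Pttg1 was nearest to 2610507I01Rik (0.22) and then Tmem232 (0.35), and Pla2g7 nearest to Gaa (0.21). Gaa was also nearest to 1700001O22Rik (0.26) and to Fgfbp1 (0.29). Odf3l2 and Dkk3 were both nearest to Tmem100 (0.27 each), a membrane protein gene of the endothelium. Tmem100 averaged 1.21 RPKM in KO and 9.90 RPKM in WT, with 15.2, 11.7, 5.88 and 6.82 RPKM in wt1 to wt4, so it shared the high pair of WT libraries.

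The tested genes nearest to the 8 on their chromosomes were not chosen by the contrast, and most changed little. Genes that were not tested were passed over in the order, so a neighbour here need not be the adjacent gene. Of 11032 genes tested, 5713 (51.8%) differed between KO and WT (limma, Benjamini-Hochberg adjusted p below 0.05), 4081 higher in KO (37.0%) and 1632 lower (14.8%). With each library centred on its median gene, which was 0.12 higher in KO on the log2 scale, 50.1% differed, 25.1% higher and 25.0% lower, and with a trend on transcript length removed 49.0% differed, 25.0% higher and 24.0% lower. Of the 80 measured genes within 5 places of the 8 genes, 23 rose (28.7%), 15 fell (18.8%) and 42 did not pass the test, with a median log2 difference of 0.02. With centring, 15 rose and 27 fell. Only 3 of the 80 were called with a difference of 2-fold or more.

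Beside Odf3l2, the nearest tested gene Shc2 fell with it, though less. Shc2, which encodes an adaptor of receptor tyrosine kinases known from neurons, had 0.60, 0.925, 0.812, 0.911 and 0.81 RPKM in KO and 5.12, 4.81, 2.53 and 2.2 RPKM in WT. No KO value reached a WT value, and wt1 and wt2 were again the high pair. That pair was not particular to this place in the genome. Kcnf1 had 5.35, 4.58, 1.56 and 2.15 RPKM in wt1 to wt4. Ier5l, a gene beside 1700001O22Rik, had 1.7, 1.81, 0.873 and 0.74 RPKM. The log2 difference of Shc2 was -1.97 (SE 0.24, limma adjusted p = 3.8e-05). The neighbour on the other side, Gm16517, averaged 9.42 ± 2.13 RPKM in KO (SD, n = 5) and 7.39 ± 0.782 RPKM in WT (SD, n = 4) and did not pass the test (limma adjusted p = 0.088). The other changes of at least 2-fold were increases. Cyp39a1, an oxysterol hydroxylase gene at place 2 from Pla2g7, averaged 4.55 ± 0.475 RPKM in KO and 1.35 ± 0.161 RPKM in WT (log2 difference 1.68, SE 0.10, limma adjusted p = 1.3e-07). Ppap2c, a lipid phosphate phosphatase gene at place 3 from Odf3l2, averaged 0.749 RPKM in KO and 0.302 RPKM in WT (log2 difference 1.06, limma adjusted p = 0.0015).

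**Figure D3:**
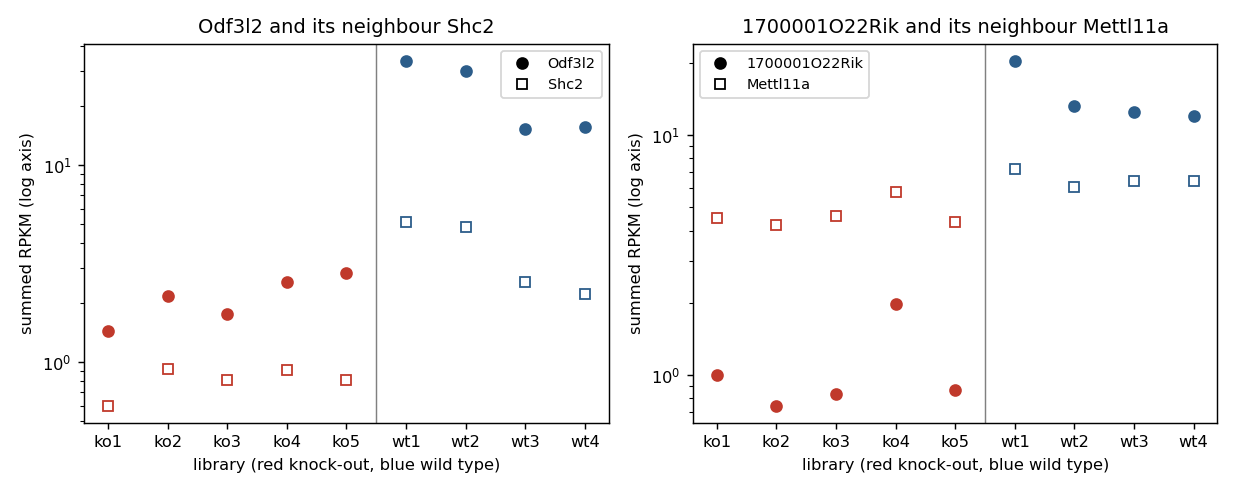
Summed RPKM (log axis) in each KO library (red, left) and WT library (blue, right) of Odf3l2 with its neighbour Shc2, and of 1700001O22Rik with its neighbour Mettl11a. Odf3l2 and Shc2 are both higher in wt1 and wt2 than in wt3 and wt4, and 1700001O22Rik and Mettl11a are both highest in ko4 among KO libraries and in wt1 among WT libraries.

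The nearest tested genes on each side of the 8 were looked at apart from the rest after their values were seen. Of these 16, 10 fell (62.5%), 1 rose and 5 did not pass the test, with a median log2 difference of -0.39, against 14.8% of all genes lower and a median of 0.12. Of the 64 genes at places 2 to 5, 5 fell (7.81%) and 22 rose. With centring, 11 of the 16 nearest genes fell, as did 16 of the 64 others (25.0%), the same share as of all genes. Whether the nearest genes fell more often than others was not tested.

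Most of these decreases were small. Beside Dkk3, Usp47, a deubiquitinase gene, averaged 59.5 RPKM in KO and 78.4 RPKM in WT (log2 difference -0.40, limma adjusted p = 1.1e-04). On its other side Mical2, an actin-oxidising enzyme gene, averaged 8.93 RPKM in KO and 14.3 RPKM in WT (-0.66, limma adjusted p = 5.9e-04). Beside Pttg1, Ccng1, the gene of cyclin G1, a target of p53, averaged 243 RPKM in KO and 314 RPKM in WT (-0.38, limma adjusted p = 0.0045), while the splicing factor gene Slu7 on the other side had a log2 difference of 0.17 that did not pass the test (limma adjusted p = 0.053). These Pttg1 neighbours were both well expressed in KO, at 243 RPKM for Ccng1 and 9.46 RPKM for Slu7.

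The nearest tested genes around Tmem232 both fell. They were Man2a1, a Golgi mannosidase gene (log2 difference -0.42), and Vapa, a membrane tether of the endoplasmic reticulum (-0.18). The nearest tested genes around 2610507I01Rik moved in opposite directions. Guk1, a guanylate kinase gene, rose (23.5 RPKM in KO and 18 RPKM in WT, log2 difference 0.38). Mrpl55 of the mitochondrial ribosome fell (14.2 RPKM in KO and 18.9 RPKM in WT, -0.42). The rise of Guk1 did not pass the test once a trend with transcript length was removed (limma adjusted p = 0.16). Beside Pla2g7, Gpr116, an adhesion receptor gene of endothelium, averaged 4.56 RPKM in KO and 7.58 RPKM in WT (-0.72, limma adjusted p = 0.011). Slc25a27, on the other side, had a log2 difference of 0.12 that did not pass the test (limma adjusted p = 0.17) and that was -0.00 with centring.

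Beside 1700001O22Rik, Mettl11a, an N-terminal methyltransferase gene, had 4.51, 4.24, 4.58, 5.77 and 4.33 RPKM in KO and 7.20, 6.07, 6.44 and 6.44 RPKM in WT. It fell in KO (log2 difference -0.48, limma adjusted p = 0.0011), and its highest KO library was ko4, as for 1700001O22Rik. On its other side Ier5l, an immediate early response gene by name, averaged 0.915 ± 0.142 RPKM in KO (SD, n = 5) and 1.28 ± 0.553 RPKM in WT (SD, n = 4) and did not pass the test (-0.36, limma adjusted p = 0.22, and 0.049 without wt4). Beside Fgfbp1, Cd38, an NAD-degrading enzyme gene, fell by 0.55 on the log2 scale (limma adjusted p = 0.026). That call was lost when ko1, ko5, wt3 or wt4 was left out (limma adjusted p 0.062, 0.060, 0.075 and 0.081). Prom1, on the other side of Fgfbp1, differed by -0.37 (limma adjusted p = 0.087, and 0.020 with centring).

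**Figure D4:**
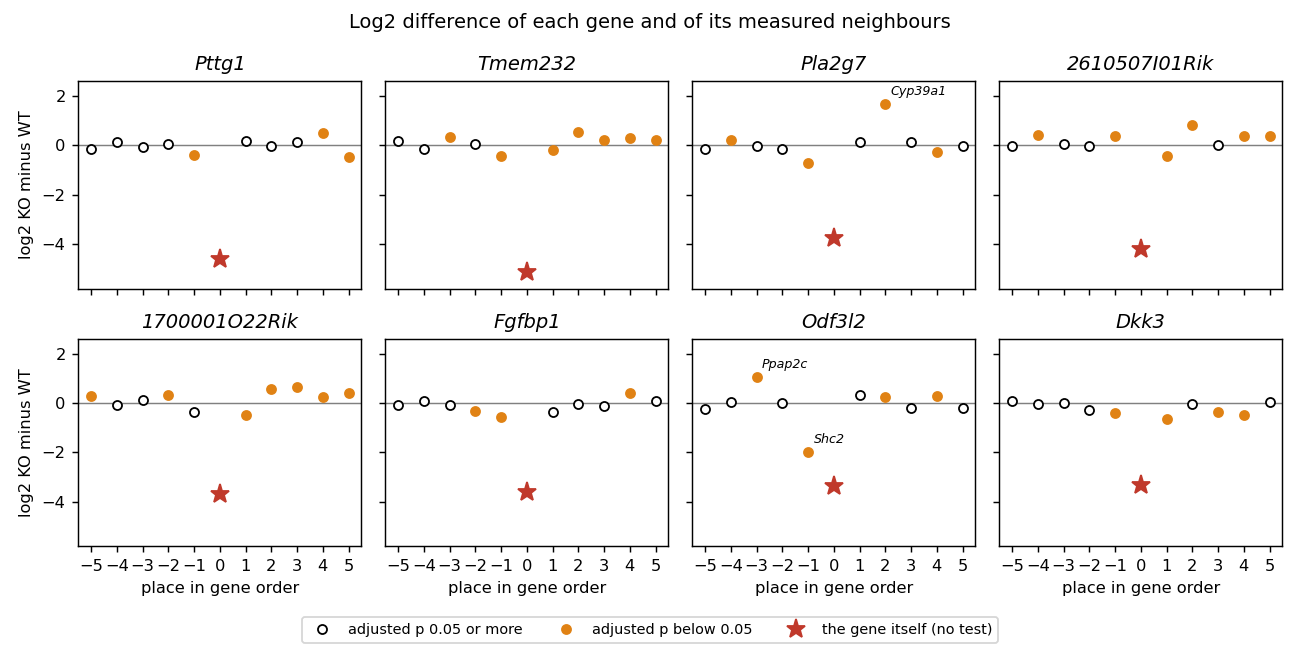
Log2 difference (KO minus WT) of each of the 8 genes (star, no test) and of the 5 measured genes on each side by place in gene order, filled where the limma adjusted p was below 0.05. Apart from Shc2 beside Odf3l2, no neighbour among the 80 approaches the loss of the gene it lies beside.

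The reference annotation places 4 genes within or across Tmem232 and 1 across Pla2g7, none of which is in the table, and none across the other 6. The annotation is of a later build than the files, and no source used here says whether reads were counted by strand.

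Of 12 measured genes of the list for securin, separase and cohesin, Pttg1 not counted, 5 fell (41.7%, against 14.8% of all genes), 1 rose (8.33%, against 37.0%) and 6 did not pass the test, with a median log2 difference of -0.13 against 0.12 for all genes. With centring, 6 fell and 1 rose, against 25.0% and 25.1% of all genes. These genes are long, with a median transcript of 5110 bases against 2866 for all genes, and the median log2 difference was 0.23 for the shortest, 0.12 for the middle and 0.03 for the longest transcripts. With the length trend removed, 6 fell and 1 rose. Pds5b, a regulator of cohesin on chromosomes, averaged 5.02 ± 0.464 RPKM in KO (SD, n = 5) and 8.48 ± 0.447 RPKM in WT (SD, n = 4), a log2 difference of -0.75 (limma adjusted p = 8.5e-06). Its relative Pds5a (4.03 RPKM in KO and 5.90 RPKM in WT) and the cohesin subunit gene Stag2 (9.30 RPKM in KO and 12.2 RPKM in WT) fell as well. The core subunit gene Smc1a rose, at 9.52 RPKM in KO and 6.96 RPKM in WT (log2 difference 0.45, limma adjusted p = 1.2e-04). Rad21, the subunit that separase cuts, averaged 12.5 RPKM in KO and 12.1 RPKM in WT (limma adjusted p = 0.58). Espl1, the separase gene itself, was below the filter, at 0.0139 to 0.0669 RPKM in KO and 0.0199 to 0.0601 RPKM in WT.

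The complex that marks securin for destruction was measured at ordinary levels. Of 17 genes of the anaphase-promoting complex and spindle checkpoint, 10 rose (58.8%, against 37.0% of all genes) and 1 fell (5.88%, against 14.8%), with a median of 0.22. With centring 5 rose and 1 fell, and the share that rose was then near the 25.1% of all genes. Anapc2 averaged 12.2 RPKM in KO and 9.09 RPKM in WT (log2 difference 0.43, limma adjusted p = 9e-05), and Bub3, a checkpoint gene, 12.7 RPKM in KO and 9.67 RPKM in WT (0.39). The activator gene Fzr1 averaged 6.48 RPKM in KO and 5.71 RPKM in WT (0.18, limma adjusted p = 0.036). The mitotic activator gene Cdc20 was below the filter, at 0.0156 to 0.104 RPKM in KO and 0.0444 to 0.12 RPKM in WT.

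Of 22 proliferation markers, 8 passed the filter, of which 2 rose (25.0%, against 37.0% of all genes) and 2 fell (25.0%, against 14.8%), with a median of 0.02. Rrm2, a ribonucleotide reductase subunit gene, had 0.721, 0.878, 0.724, 1.39 and 0.834 RPKM in KO and 0.258, 0.133, 0.255 and 0.24 RPKM in WT (log2 difference 1.63, limma adjusted p = 5.7e-05). Mcm2, of the replicative helicase, had 1.33, 1.53, 1.2, 1.3 and 1.57 RPKM in KO and 2.26, 2.12, 2.25 and 2.14 RPKM in WT (-0.63, limma adjusted p = 1.7e-04). Pcna rose (0.40) and Aurka fell (-0.42, limma adjusted p = 0.016, and 0.051 without wt2). Below the filter, Mcm6 fell, at 0.0388 to 0.159 RPKM in KO and 0.4 to 0.723 RPKM in WT. Its log2 difference in a fit with no filter was -1.64 (limma adjusted p = 3.1e-04). In that fit Kif11 (0.63), Birc5 (0.72) and Ccna2 (0.41) rose (limma adjusted p = 0.0054, 0.026 and 0.035). The WT level of Pttg1, 38.9 RPKM, was above that of each proliferation marker named here.

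**Figure D5:**
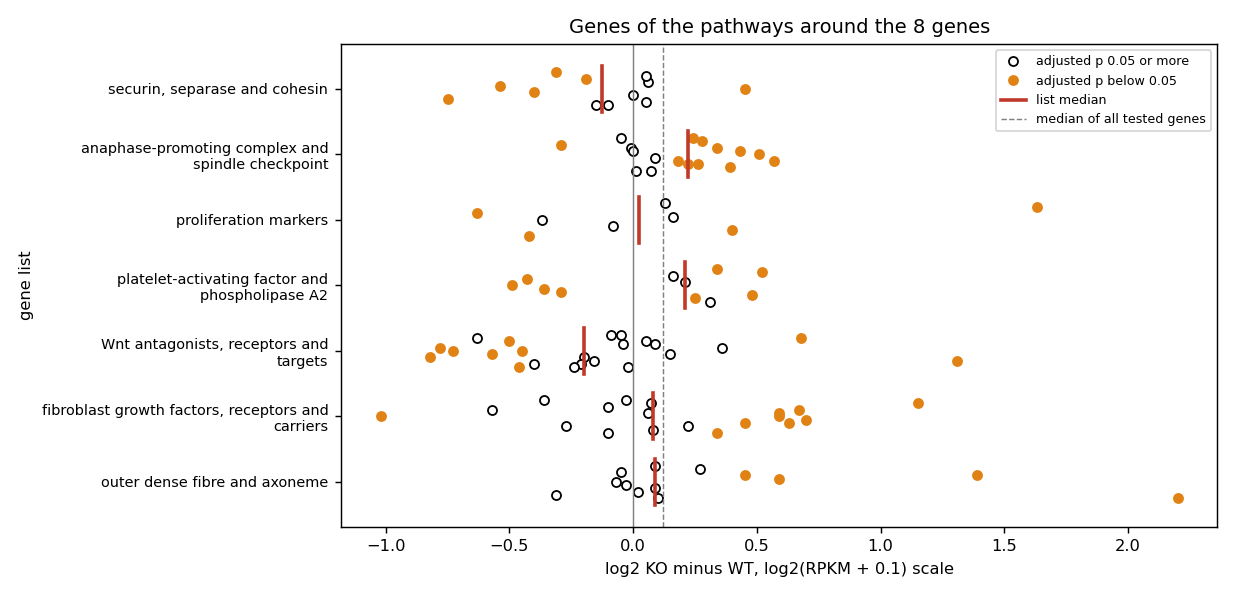
Log2 difference (KO minus WT, log2(RPKM + 0.1) scale) of the measured genes of 7 lists around the 8 genes, filled where the limma adjusted p was below 0.05, with the list median in red and the median of all genes (0.12) dashed. The cohesin and Wnt lists have medians below 0 (-0.13 and -0.20), and the furthest points are Ift122 at 2.2 and Rrm2 at 1.63.

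Enzymes that act on platelet-activating factor and related phospholipids were measured beside Pla2g7. Of 11 tested, 4 rose (36.4%, against 37.0% of all genes) and 4 fell (36.4%, against 14.8%). With centring 3 rose and 4 fell, against 25.1% and 25.0% of all genes. The subunit genes of the intracellular acetylhydrolase differed in direction, with Pafah1b2 at 4.11 RPKM in KO and 3.23 RPKM in WT (log2 difference 0.34, limma adjusted p = 9.7e-04) and Pafah1b1, better known as Lis1, at 22.1 RPKM in KO and 27.0 RPKM in WT (-0.29, limma adjusted p = 0.001). Pafah2, the closest relative of Pla2g7, averaged 1.09 RPKM in KO and 0.926 RPKM in WT and did not pass the test (limma adjusted p = 0.12). The acetylhydrolase subunit gene Pafah1b3 and the receptor gene Ptafr were below the filter. Pafah1b3 had 0.194 to 0.762 RPKM in KO and 0.12 to 0.32 RPKM in WT, and Ptafr 0.186 to 0.655 RPKM in KO and 0.13 to 0.334 RPKM in WT. Among phospholipases A2, Pla2g12a rose (25.6 RPKM in KO and 18.4 RPKM in WT, 0.48) and Pla2g16 fell (37.8 RPKM in KO and 53.3 RPKM in WT, -0.49).

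Macrophage markers moved opposite to Pla2g7. Of 15 measured, 13 rose (86.7%, against 37.0% of all genes) and none fell, with a median of 1.21, and none of the markers was at 0 in all libraries. Their summed level was 87.0 to 149 RPKM in KO and 36.7 to 49.3 RPKM in WT. Cd68, a lysosomal protein of macrophages, averaged 6.82 RPKM in KO and 0.865 RPKM in WT (log2 difference 2.88). Endothelial markers moved with the losses between genotypes: of 14, 9 fell (64.3%, against 14.8% of all genes) and none rose. They summed to 35.7 to 62.5 RPKM in KO and 50.2 to 79.3 RPKM in WT, so their sums overlapped. Within WT, none of the 14 had the high pair wt1 and wt2 of Odf3l2 and Dkk3. Kdr, for example, had 1.92, 2.03, 4.4 and 4.01 RPKM in wt1 to wt4, and Cdh5 7.31, 8.74, 12.9 and 12.3 RPKM. The part of these cells in the losses of the 8 genes was not tested.

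Of the other Dickkopf genes, none came near the loss of Dkk3. Dkk2 averaged 1.19 RPKM in KO and 0.877 RPKM in WT (limma adjusted p = 0.21), and Dkk1 and Dkk4 were at most 0.0252 RPKM in any library. Of 23 Wnt antagonists, receptors and targets, 7 fell (30.4%, against 14.8% of all genes) and 2 rose (8.7%, against 37.0%), with a median of -0.20. With centring, 10 fell and 2 rose, against 25.0% and 25.1% of all genes, and without the length trend 9 fell and 2 rose, against 24.0% and 25.0%. The co-receptor gene Lrp6 averaged 5.00 RPKM in KO and 8.68 RPKM in WT (log2 difference -0.78, limma adjusted p = 5.4e-05), while Lrp5 averaged 2.35 RPKM in KO and 2.43 RPKM in WT (limma adjusted p = 0.72). The Dickkopf receptor gene Kremen1 averaged 9.15 RPKM in KO and 9.36 RPKM in WT (limma adjusted p = 0.73). Lgr4, the receptor of R-spondins, fell by 0.82 on the log2 scale (limma adjusted p = 7.3e-06), and Gsk3b, a kinase that marks beta-catenin for destruction, fell by 0.46 (limma adjusted p = 1.8e-05). The secreted Wnt antagonist gene Frzb rose, at 2.86 RPKM in KO and 1.11 RPKM in WT (1.31, limma adjusted p = 4.8e-06).

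Of 19 genes of fibroblast growth factors, their receptors and carriers tested beside Fgfbp1, 8 rose (42.1%, near the 37.0% of all genes) and 1 fell (5.26%, against 14.8%), with a median of 0.08, and with centring 7 rose and 3 fell. Without ko2, ko3 or wt4, 2 fell. Gpc1, a heparan sulphate carrier on the cell surface, averaged 99.2 RPKM in KO and 61.0 RPKM in WT (log2 difference 0.70, limma adjusted p = 2.9e-06), and the receptor gene Fgfr1 14.1 to 16.3 RPKM in KO and 9.34 to 11 RPKM in WT (0.59, limma adjusted p = 1.9e-05). Fgfr4, a receptor of muscle precursor cells, averaged 0.737 RPKM in KO and 0.299 RPKM in WT (1.15, limma adjusted p = 0.008). The related carrier gene Fgfbp3 averaged 0.606 RPKM in KO and 0.617 RPKM in WT (limma adjusted p = 0.90). Among growth factors that Fgfbp1 is known to bind, Fgf1 averaged 4.0 RPKM in KO and 4.26 RPKM in WT (limma adjusted p = 0.52). Fgf2, below the filter, had 0.229 to 0.399 RPKM in KO and 0.54 to 0.645 RPKM in WT, which do not overlap (-0.75, limma adjusted p = 0.0038 in the fit with no filter). Fgf10 had 0.0739 to 0.116 RPKM in KO and 0.123 to 0.216 RPKM in WT (-0.48, limma adjusted p = 0.016 in that fit), and Fgf7 overlapped between the groups (limma adjusted p = 0.56 in that fit).

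The other genes named for outer dense fibres showed nothing like the loss of Odf3l2. Odf2 averaged 2.26 RPKM in KO and 2.34 RPKM in WT (limma adjusted p = 0.65) and Odf2l 2.30 RPKM in KO and 2.33 RPKM in WT (limma adjusted p = 0.87). Odf1, Odf3 and Odf4 were at most 0.0334 RPKM in any library, Odf3b at most 0.213 and Odf3l1 at most 0.308. Of 13 tested outer dense fibre and axoneme genes, 4 rose and none fell (30.8% against 37.0% of all genes, and 3 rose and 1 fell with centring), and 1 fell without ko3 or ko5. Ift122, of the transport machinery inside cilia, had 14.0, 14.3, 13.9, 13.7 and 13.9 RPKM in KO and 2.26, 2.66, 3.8 and 3.34 RPKM in WT (log2 difference 2.2, limma adjusted p = 6.6e-08). Tekt1, of ciliary and flagellar microtubules, averaged 3.29 RPKM in KO and 1.19 RPKM in WT (1.39, limma adjusted p = 2.6e-06).

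Over the 7 lists together, 31 of 103 genes rose and 20 fell, and with centring 23 rose and 27 fell. These shares, near those of all genes, say nothing particular about the lists.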

How the data were processed

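RNA sequencing of total RNA (Trizol, Illumina TruSeq RNA kit, per the labels' protocols) gave 9 libraries. The authors deposited 1 table of RPKM values per RefSeq transcript, 1 column per library. The submitters' processing notes name the build mm9 and, without roles, TopHat 1.3.2, Bowtie 0.12.7.0 and Partek 6.6; filters and strand setting are not stated in them. RPKM was summed per symbol; 36 of 37 symbols garbled to dates were restored through the transcript identifier. A reference annotation of GRCm38 gave transcript lengths and gene order only (22782 of 23665 transcripts matched). Depth was estimated from the step of 1 read among low values, where 70.5% to 74.3% of values lay within 0.1 of a whole read, too few to recover counts, so count models were not applied. In R 4.3.3, limma 3.58.1 was fitted to log2(RPKM + 0.1) of genes averaging 0.5 RPKM or more (lmFit, eBayes with trend, two-sided, Benjamini-Hochberg over 11032 genes, threshold 0.05), 5 KO against 4 WT libraries; the step was tested on simulated data. Tables were made with Python 3.11.15, pandas 2.3.3 and numpy 2.4.6, and plots with matplotlib 3.10.9.

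The 8 genes and the lists around them were chosen with earlier results of these data known. Besides the 8 and Gaa, the text names the genes at the edge of the 10 largest decreases, up to 4 called genes of a list with the smallest adjusted p, direct partners of the 8, the nearest measured neighbour on each side and any called neighbour changed at least 2-fold, and the 2 genes of most like pattern. Some fibre markers, and proliferation markers below the filter, are also named to show limits of their lists. No set test was run, and lists are described by counts and medians. Alternatives were pseudocounts of 0.01 and 1, no filter, centring, quantile normalization, each library left out and, added after seeing the data, removal of the trend with transcript length. No label or header names a batch, so one that followed genotype cannot be told apart from it.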

Additional observations from a re-analysis of the deposited data

Results flagged for a closer look

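Of 160 groups of 4 or 5 library values of named genes, 11 had a highest or lowest library that stood apart from the others by more than the 95% limit of Dixon's test, and chance flags about 1 group in 20. Among the 8 genes, 2 of 16 groups were marked, both of 1700001O22Rik: ko4 at 1.97 RPKM, against 0.747 to 1.00 RPKM in the other KO libraries, and wt1 at 20.3 RPKM, against 12 to 13.2 RPKM in the other WT libraries. Its neighbour Mettl11a was highest in ko4 too, at 5.77 RPKM against 4.24 to 4.58 RPKM in the other KO libraries. Library ko4 also stood apart for Rrm2 (1.39 RPKM against 0.721 to 0.878), Frzb (3.41 RPKM against 2.66 to 2.79) and Cidec, a lipid droplet gene of adipocytes (8.39 RPKM against 4.34 to 5.03). Library ko2 stood apart for Anapc7 (7.25 RPKM against 6.19 to 6.45), for Esam, an endothelial adhesion gene (7.41 RPKM against 4.32 to 4.85), and for Cdh15, a cadherin gene of muscle precursors (7.98 RPKM against 6.36 to 6.79). Among WT libraries, wt2 was low for Rrm2 (0.133 RPKM against 0.24 to 0.258) and wt1 low for Pafah1b2 (2.93 RPKM against 3.29 to 3.37).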

How the results depend on the processing

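No paired analysis was possible because the WT value columns carry no label number that ties them to a sample, so KO and WT libraries could not be matched. All 8 genes kept their direction under every alternative run. They were chosen for large decreases in these same libraries, so nothing is read from the kept direction. With a pseudocount of 1 the log2 differences shrank to -3.98 for Pttg1, -3.01 for Tmem232, -2.19 for 2610507I01Rik, -2.90 for 1700001O22Rik, -2.18 for Fgfbp1 and -1.89 for Dkk3. With 0.01 they grew to -5.85 for Tmem232 and -4.89 for 2610507I01Rik. Quantile normalization gave -4.72 for Pttg1, -5.73 for Tmem232, -4.79 for 2610507I01Rik and -3.98 for Fgfbp1; centring gave -4.72 and removal of the length trend -4.89 for Pttg1. Read per transcript, the lesser Pttg1 transcript differed by -4.01 and those of 1700001O22Rik by -2.90 and -0.79. Leaving out 1 library at a time gave -4.65 to -4.55 for Pttg1, -5.27 to -5.05 for Tmem232, -3.84 to -3.62 for Pla2g7, -4.26 to -4.13 for 2610507I01Rik, -3.90 to -3.50 for 1700001O22Rik, -3.71 to -3.46 for Fgfbp1, -3.53 to -3.15 for Odf3l2 and -3.59 to -3.00 for Dkk3. It gave 3570 to 4106 genes higher and 1406 to 1596 lower, 22 to 25 and 14 to 18 neighbours, 28 to 32 and 19 to 22 list genes, and 28 to 35 and 13 to 18 markers. Genes called lower numbered 1632, but 2758 with centring, 2651 without the length trend and 3056 with quantile normalization, where 2644 were higher against 4081. Neighbours (23 higher, 15 lower) became 15 and 27 with centring, 14 and 24 after removal of the length trend and 15 and 33 with quantile normalization. List genes called lower numbered 20, and 32 with quantile normalization; markers called lower numbered 15, and 24 with the length trend removed. Slc25a27 reversed from 0.12 to -0.00 with centring and -0.02 with quantile normalization, and Mylpf, a fast myosin light chain gene, to -0.03 with the length trend removed. The cause of these shifts was not tested. Among other named genes 9 values gained and 29 lost the call under some setting, and 1038 stayed on the same side. KO values of Tmem232 and Fgfbp1 rest on few reads, which limits their precision.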

Other observations

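Other cell types of the muscle had marker lists of their own, whose counts stand against 37.0% of all genes higher and 14.8% lower, or 25.1% and 25.0% with centring. Oxidative fibre markers, slow apart from Myh2 of fast type 2A fibres, rose in 9 of 10 cases (median log2 difference 1.25, 8 with centring). They summed to 1493 to 1846 RPKM in KO and 924 to 1390 RPKM in WT. Most of that sum was Mb (926 RPKM in KO and 869 RPKM in WT, not called) and Myh2 (364 and 158 RPKM). The slow myosin gene Myh7 had 13.3 to 54.1 RPKM in KO and 2.24 to 15.8 RPKM in WT, which overlap. Satellite cell and muscle precursor markers rose in 5 of 7 (3 without wt1), and summed to 2257 to 2603 RPKM in KO and 1092 to 1438 RPKM in WT. Nearly all of that sum was Des, the desmin gene, which the fibres also express, at 2369 RPKM in KO and 1205 RPKM in WT. Fibroblast markers rose in 4 of 11 and fell in 1 (2 without ko4), with sums of 303 to 405 RPKM in KO and 202 to 296 RPKM in WT. Adipocyte markers fell in 4 of 9 (7 without wt2 and 7 with centring) and none rose (2 without wt3), with overlapping sums of 190 to 302 RPKM in KO and 201 to 334 RPKM in WT. Of 5 Schwann cell markers none passed the test (1 rose without wt3). Of 10 fast fibre markers 1 rose and 1 fell, and leaving out single libraries gave 0 to 2 risen and 1 to 2 fallen. Together, 32 of 81 marker genes rose and 15 fell.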
